A study of Mus musculus with 16 samples.

Results

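The genes described here are a list of 10 tuft cell identity and effector genes: the regulator Pou2f3, the cytoskeletal genes Avil and Dclk1, the signalling genes Lrmp, Bmx and Sh2d6, and the effector genes Il25, Chat, Alox5ap and Ltc4s. They were chosen by name, and 9 of the 10 had an entry among the 23420 genes of the count table and the 23063 genes of the RPKM table. Sh2d6, an SH2-domain gene, was not analysed here. RNA had been sequenced from 3 sorted populations of mouse thymic epithelial cells, from psmb11 +/+ mice (WT) and psmb11 -/- mice (KO), which lack the thymoproteasome subunit beta5t. Cortical cells (cTEC) had 2 libraries per genotype, and medullary cells low (mTEClo) and high (mTEChi) in MHC class II had 3 libraries per genotype each, 16 libraries in 6 groups. All 6 groups carry the strain label C57BL/6-derived BAC and no treatment. The labels give an age of 6 to 8 weeks and 11 thymi, whereas the extraction protocol gives 7 days and 14 mice. The sources used here do not say how many animals went into each library. All cells were sorted as CD45-negative and EpCAM-positive, cTEC as Ly51-positive and mTEC as UEA1-positive. The p-values below therefore measure the spread between libraries, which may be technical.

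Tuft cells are rare chemosensory epithelial cells of the gut, the airways and the thymic medulla. They sense stimuli through the taste signalling cascade and answer with the cytokine IL-25, acetylcholine and lipid mediators such as leukotrienes. Pou2f3 is the POU-domain factor without which they do not form. In the thymus they belong to the mature medullary cells that have low MHC class II and no longer make Aire, the regulator of tissue-restricted genes in mTEChi.

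Libraries held 64753610 to 146707262 reads assigned to genes, so that 3 counts corresponded to at most 0.043 CPM. Psmb11, the targeted gene, had 15214 and 12756 counts in the WT cTEC libraries and 157 and 0 counts in the KO libraries, which fits the labels. The sorted populations differed in the sum of the cortical markers and in Aire, though not every marker followed. The 10 cortical markers summed to 6756 to 8076 CPM in WT cTEC and to at most 2578 CPM in any mTEC library, and Aire stood at 1251 to 1642 CPM in mTEChi and at or below 107 CPM elsewhere. Ctsl alone made up 3228 to 3900 CPM of the WT cTEC sum. From WT cTEC to WT mTEChi 7 of the 10 cortical markers had a log2 fold change below 0. Dll4, Ccl25 and Tbata lay above 0, Tbata with a mean of 369 CPM in WT cTEC and 502 CPM in WT mTEChi. Of 9 medullary markers tested 7 lay above 0 in that contrast, and Krt5 and Krt14 lay below. Ccl21a, a marker of mTEClo, was listed at 0 in all 16 libraries. The cTEC KO libraries stood apart. In KO 1 30.4% of reads lay outside genes, the highest share of the 16 libraries, against 22.6 and 20.8% in WT cTEC and 19.9% in KO 2. KO 2 had 8541 genes with no reads, and 149 of the 12173 genes at or above 5 CPM in KO 1 (1.22%) were more than 50-fold lower in KO 2, against 2 genes in the opposite direction. The biological coefficient of variation, the relative spread between libraries of a group, was 0.652 in the fit of cTEC against 0.131 in mTEClo and 0.113 in mTEChi.

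All 9 measured genes were highest in mTEClo, in both genotypes. Their levels are given as CPM, reads per gene relative to the size of the library, scaled by TMM over all 16 libraries, and levels of different genes are compared only as RPKM, which also divides by gene length. In WT mTEClo the RPKM ran from Avil at 165 ± 5.80 (SD, n = 3) through Lrmp at 126 ± 3.07, Alox5ap at 109 ± 3.30, Bmx at 51.0 ± 4.0, Ltc4s at 42.3 ± 3.82, Dclk1 at 29.9 ± 1.65, Pou2f3 at 29.7 ± 0.44 and Il25 at 17.4 ± 2.62 to Chat at 9.62 ± 0.65. Dclk1 and Pou2f3 overlapped in RPKM between libraries there, and the libraries of the other neighbours in that order did not. Avil had the highest mean RPKM of the 9 in all 6 groups.

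Pou2f3 (chromosome 9, 43123939 to 43205755, mm10), the regulator of the lineage, stood at 105, 103 and 99.4 CPM in WT mTEClo and at 110, 85.1 and 72.5 CPM in KO mTEClo. In cTEC it stood at 24.0 and 20.9 CPM in WT and at 62.3 and 40.9 CPM in KO. In mTEChi it stood at 49.5, 54.1 and 58.6 CPM in WT and at 45.8, 59.5 and 60.1 CPM in KO. The mTEClo libraries were thus all above the mTEChi libraries, the mTEChi libraries were all above WT cTEC, and the KO cTEC libraries overlapped with mTEChi.

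Pou2f3 belongs to the factors that bind the octamer ATGCAAAT, so the promoters of the members were searched for it, as a description of sequence only. RefSeq promoters on GRCm38.p6 (250 bases before to 50 after the start, 300 bases) were at hand for 6 of the 10 genes, 7 promoters in all, and 5 of these genes were measured. None of the 7 held the full octamer on either strand, which 1.74% of all 32851 promoters held. Of the 7-letter parts of the octamer, which can overlap each other, TGCAAAT stood in 4.02%, ATGCAAA in 4.63% and either in 6.82% of all promoters. Avil and Chat held such a part, and both are shown for that reason, read 5′ to 3′ along the gene with the matching letters in capitals. In Avil (chr10:127000459-127000758, plus strand) ATGCAAA began 15 bases before the start, and it stood once more on the opposite strand, where the printed strand reads TTTGCAT, 115 bases before the start. In Chat (chr14:32465860-32466159, minus strand) TGCAAAT began 20 bases before the start. Whether Pou2f3 binds there was not measured.
Avil promoter: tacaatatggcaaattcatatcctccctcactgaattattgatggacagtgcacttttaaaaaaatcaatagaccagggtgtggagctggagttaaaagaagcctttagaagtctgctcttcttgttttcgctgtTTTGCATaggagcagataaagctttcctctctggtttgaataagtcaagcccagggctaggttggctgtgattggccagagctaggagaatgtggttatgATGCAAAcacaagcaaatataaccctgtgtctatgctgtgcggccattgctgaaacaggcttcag
Chat promoter: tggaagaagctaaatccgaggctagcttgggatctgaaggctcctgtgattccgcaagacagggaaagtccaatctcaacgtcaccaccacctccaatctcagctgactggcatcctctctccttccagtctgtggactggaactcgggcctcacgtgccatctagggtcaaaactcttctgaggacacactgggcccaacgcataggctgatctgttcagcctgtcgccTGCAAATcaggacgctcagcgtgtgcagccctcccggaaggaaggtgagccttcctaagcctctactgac

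Avil (chromosome 10, 127000709 to 127020994), advillin, an actin-bundling protein of the villin family that marks the tuft of microvilli, stood at 704, 676 and 642 CPM in WT mTEClo and at 600, 547 and 419 CPM in KO mTEClo. Its cTEC values were 118 and 87.6 CPM in WT and 325 and 208 CPM in KO. Its mTEChi values were 101, 99.3 and 146 CPM in WT and 85.8, 104 and 97.8 CPM in KO. WT cTEC and mTEChi overlapped at about the same low level, and KO cTEC lay between these and mTEClo.

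Dclk1 (chromosome 3, 55242526 to 55539068), a microtubule-associated kinase and the most used tuft cell marker in mouse gut, stood at 514, 510 and 552 CPM in WT mTEClo and at 513, 459 and 377 CPM in KO mTEClo. Its cTEC values were 149 and 142 CPM in WT and 323 and 221 CPM in KO. Its mTEChi values were 67.6, 60.5 and 80.8 CPM in WT and 71.4, 66.8 and 70.0 CPM in KO. For Dclk1 the order was therefore mTEClo, KO cTEC, WT cTEC and mTEChi, with no overlap between WT cTEC and mTEChi.

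Lrmp (chromosome 6, 145121739 to 145174871), a membrane protein of the endoplasmic reticulum, stood at 407, 386 and 394 CPM in WT mTEClo and at 372, 333 and 246 CPM in KO mTEClo. Bmx (chromosome X, 164192842 to 164258193), a Tec-family tyrosine kinase, stood at 202, 200.1 and 226 CPM in WT mTEClo and at 190.0, 195 and 129 CPM in KO mTEClo. For both genes every KO mTEClo library lay below every WT mTEClo library, and KO 3 lay lowest. In cTEC, Lrmp stood at 68.3 and 57.2 CPM in WT and at 214 and 105 CPM in KO. Bmx stood at 33.5 and 25.3 CPM in WT cTEC and at 86.5 and 72.8 CPM in KO cTEC. In both genes the KO cTEC libraries lay above the WT ones. In mTEChi, Lrmp ranged from 53.1 to 77.8 CPM and Bmx from 25.1 to 44.4 CPM over the 6 libraries, and WT 3 was the highest for each.

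Il25 (chromosome 14, 54932695 to 54935836), the cytokine by which tuft cells activate group 2 innate lymphoid cells, stood at 20.8, 26.2 and 27.4 CPM in WT mTEClo and at 20.2, 24.3 and 15.6 CPM in KO mTEClo. In cTEC it stood at 3.79 and 5.30 CPM in WT and at 11.9 and 0.070 CPM in KO. Its mTEChi values were 2.09, 3.90 and 4.90 CPM in WT and 1.70, 2.85 and 2.57 CPM in KO. The KO cTEC libraries thus lay on both sides of WT: KO 1 had 886 counts and KO 2 had 5 counts (95% exact Poisson interval 1.62 to 11.7, counting error only). The other 8 members lay above WT in KO 2 as well as in KO 1.

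Chat (chromosome 14, 32408203 to 32465909), the enzyme that makes acetylcholine, stood at 37.1, 33.2 and 36.7 CPM in WT mTEClo and at 28.1, 27.0 and 19.9 CPM in KO mTEClo. Its cTEC values were 5.30 and 4.67 CPM in WT and 17.0 and 14.3 CPM in KO. Its mTEChi values were 6.65, 4.66 and 8.73 CPM in WT and 4.09, 6.30 and 4.63 CPM in KO. All 3 KO mTEClo libraries lay below all 3 WT ones, and both KO cTEC libraries lay above both WT ones.

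Alox5ap (chromosome 5, 149265058 to 149288047) presents arachidonic acid to 5-lipoxygenase, the first step of leukotriene synthesis. It stood at 117, 121 and 114 CPM in WT mTEClo and at 133, 108 and 77.6 CPM in KO mTEClo. Its cTEC values were 19.9 and 18.6 CPM in WT and 65.2 and 41.1 CPM in KO. Its mTEChi values were 12.5, 10.7 and 15.7 CPM in WT and 11.1, 10.7 and 8.31 CPM in KO. WT and KO overlapped in mTEClo, and all mTEChi libraries lay below all cTEC libraries. Ltc4s (chromosome 11, 50236472 to 50238471) joins glutathione to the leukotriene intermediate further down the same path. It stood at 32.2, 28.2 and 26.7 CPM in WT mTEClo and at 27.6, 21.7 and 19.6 CPM in KO mTEClo. Its cTEC values were 4.90 and 4.82 CPM in WT and 15.2 and 6.96 CPM in KO. Its mTEChi values were 9.94, 10.7 and 13.5 CPM in WT and 9.28, 12.5 and 9.47 CPM in KO. Unlike Alox5ap, Ltc4s lay higher in all mTEChi libraries than in WT cTEC. Reads were counted from a kit that does not mark the strand, and of the exonic bases of Ltc4s 26.4% (268 of 1014) overlap the antisense gene Gm26542, as 13.3% of those of Alox5ap overlap Gm19719. Reads from such a pair cannot be told apart there. The next largest share was 4.86%, of Avil with Tsfm.

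**Figure D1:**
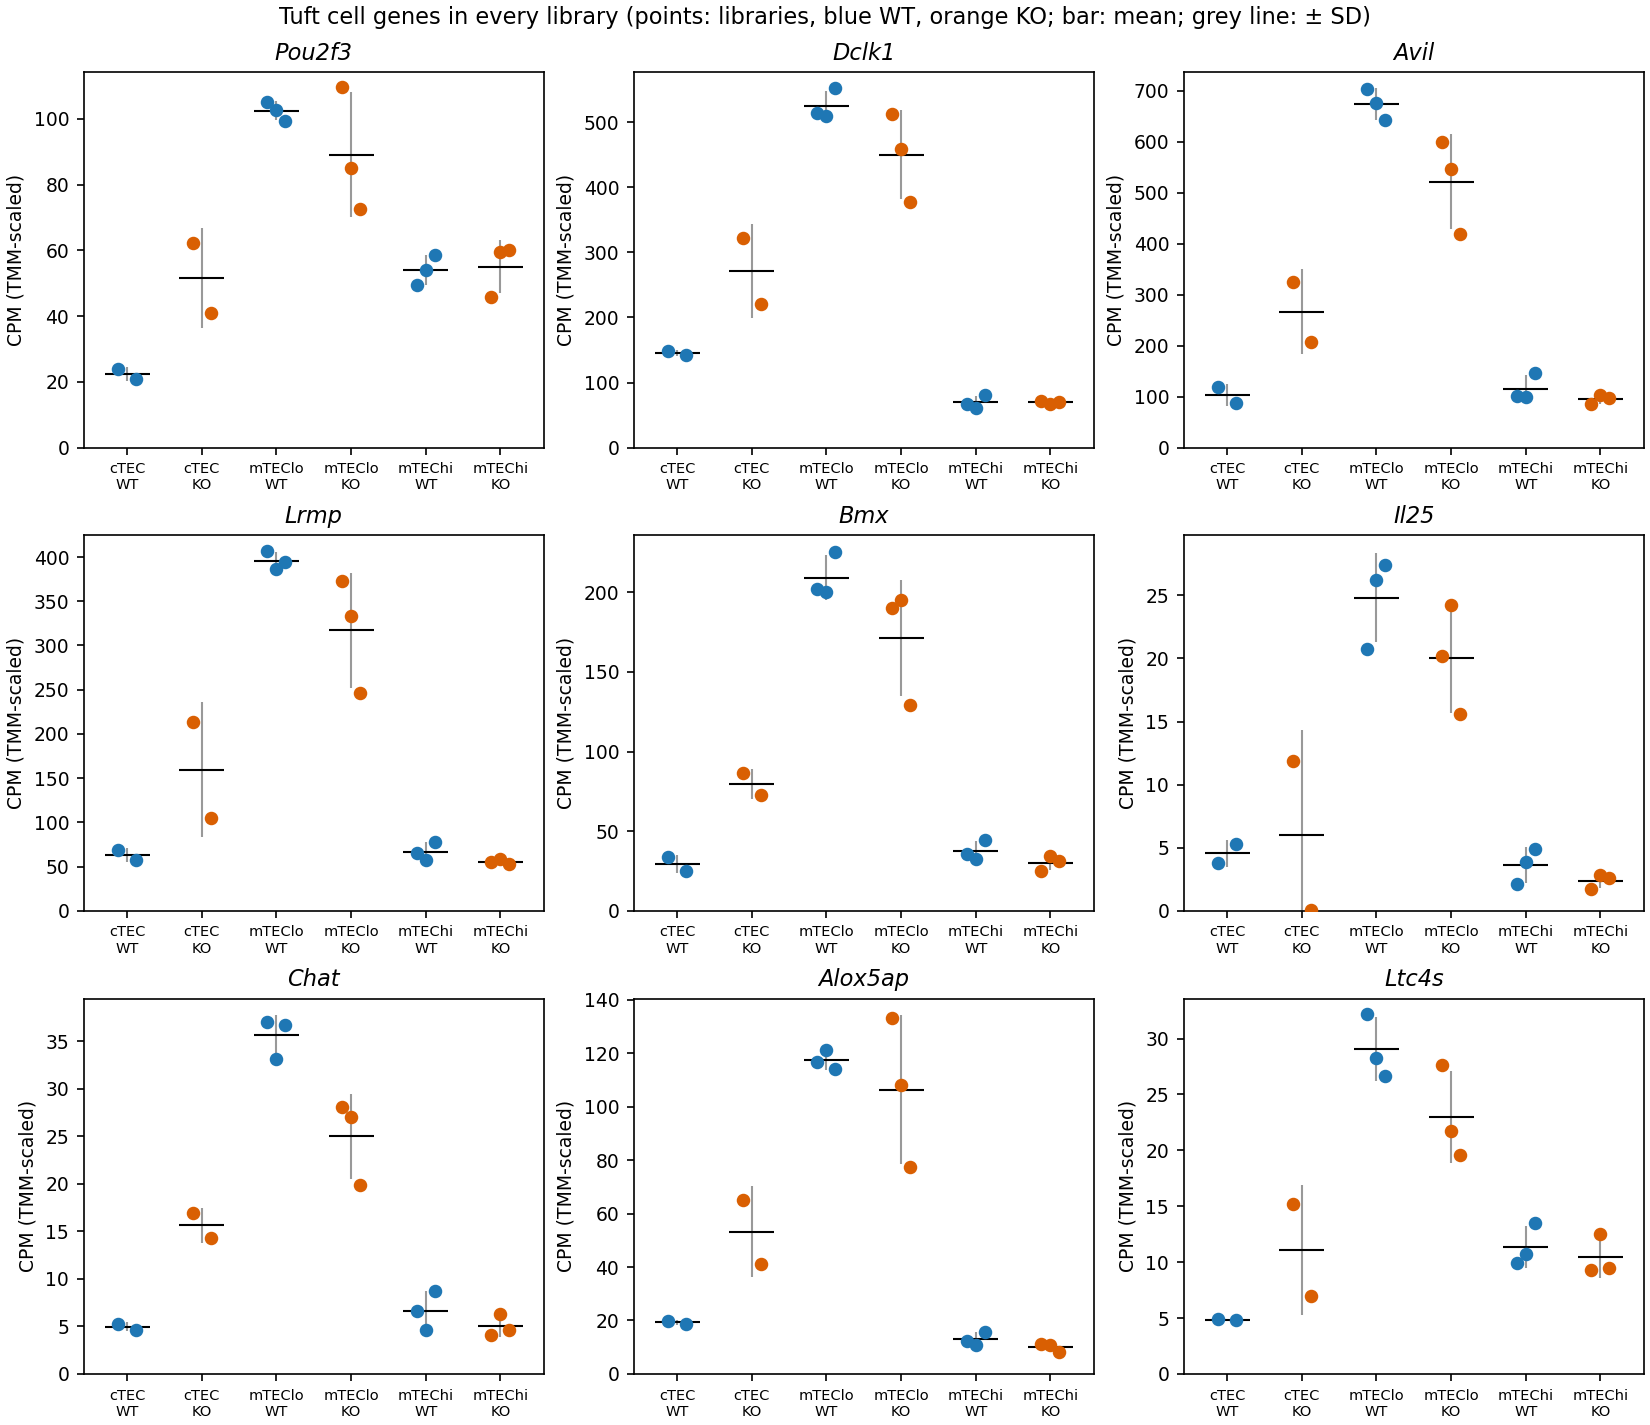
CPM of each of the 9 measured genes (vertical axes, linear, starting at 0) in the 6 groups (horizontal axes). Points are libraries, blue for WT and orange for KO, the bar is the mean and the grey line ± SD. Every gene is highest in mTEClo, cTEC KO lies above cTEC WT for 8 of 9 genes, and Pou2f3 and Ltc4s keep more of their mTEClo level in mTEChi than the other 7.

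The first comparison asked in which epithelial population the genes are expressed. In WT mTEClo against WT cTEC, 8 of 9 members were higher (edgeR quasi-likelihood test, adjusted p under 0.05), where 14.4% of the 17820 genes tested were called higher. The median log2 fold change was 2.52, and that of all genes tested was 0.01. The largest were Chat at 2.75 (SE 0.19, adjusted p = 6.37e-06) and Bmx at 2.75 (SE 0.20, adjusted p = 9.01e-06), and the smallest call was Dclk1 at 1.77 (SE 0.16, adjusted p = 3.29e-05). Il25 had a log2 fold change of 2.36 (SE 1.11) and did not pass in edgeR (adjusted p = 0.146), in a fit that takes in the cTEC KO library with 5 counts. All 9 members, Il25 included, had every WT mTEClo library above every WT cTEC library, where 38.8% of all genes did.

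In WT mTEChi against WT mTEClo all 9 members fell, where 36.8% of 19816 genes fell in the same edgeR fit. In KO mTEChi against KO mTEClo all 9 fell as well, where 37.2% of genes fell. The KO contrast compares other libraries than the WT contrast, but both were taken from the same edgeR fit of WT and KO libraries. They share its estimate of the spread between libraries, so the KO test is not independent of the WT test. The libraries of the populations did not overlap for any of the 9 in either genotype, where 38.5% of genes in WT and 37.7% in KO lay lower without overlap. The medians were -2.55 in WT and -2.50 in KO, against 0.08 and 0.09 over all genes tested. Alox5ap fell most in both genotypes, by -3.19 on the log2 scale (SE 0.18, adjusted p = 2.96e-10) in WT and -3.41 (SE 0.18, adjusted p = 1.51e-10) in KO. Pou2f3 fell least, by -0.93 (SE 0.13, adjusted p = 1.03e-05) in WT and -0.69 (SE 0.13, adjusted p = 0.000184) in KO in the edgeR fit. Ltc4s came next, at -1.36 (SE 0.15) in WT and -1.14 (SE 0.15) in KO. The other 7 lay between -2.44 and -3.19 in WT and between -2.33 and -3.41 in KO. From bulk RNA of sorted cells, fewer tuft cells and less RNA of these genes per cell cannot be told apart, here or in the comparisons below.

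The members did not keep a fixed proportion to each other between populations. Set to the mean of WT mTEClo as 100%, the 7 members other than Pou2f3 and Ltc4s stood at 8.41 to 24.5% in the WT mTEChi libraries and at 6.86 to 17.7% in the KO ones. Pou2f3 stood at 48.3 to 57.2% in WT mTEChi and at 44.7 to 58.6% in KO mTEChi. Ltc4s stood at 34.2 to 46.4% and at 31.9 to 43.2%. In each of the 6 mTEChi libraries both lay above all of the other 7. In WT cTEC the 9 members spread over 12.1 to 28.4%, and there Dclk1 was the highest in both libraries and Pou2f3 came to 23.4 and 20.4%. This division into 2 genes and 7 was drawn after the values were seen and is a description.

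**Figure D2:**
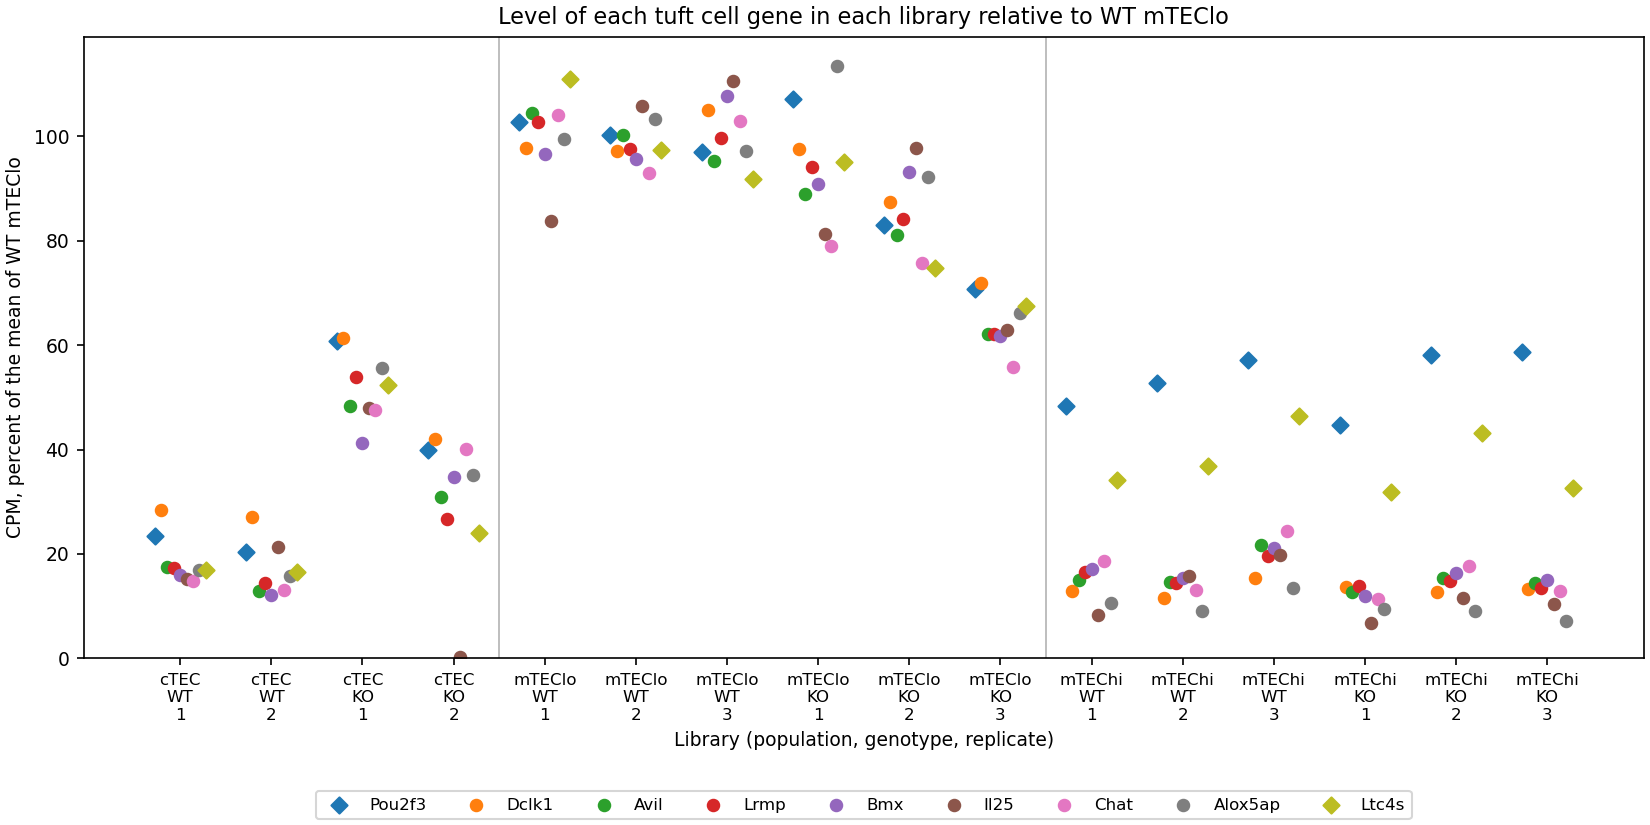
Level of each member in each library (horizontal axis) as a percent of its mean CPM in WT mTEClo (vertical axis, linear, starting at 0). Diamonds are Pou2f3 and Ltc4s and circles the other 7; in the mTEChi libraries Pou2f3 lies at 44.7 to 58.6% and Ltc4s at 31.9 to 46.4%, above the circles, which reach at most 24.5%.

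Ratios of RPKM within a library describe the same shift without a scaling between libraries. Each pair sets Pou2f3 or Ltc4s against a member that fell more from mTEClo to mTEChi. The ratios thus restate the values above and are not further support. Pou2f3 to Avil came to 0.176 to 0.183 in WT mTEClo, 0.185 to 0.217 in KO mTEClo, 0.239 and 0.282 in WT cTEC and 0.227 and 0.232 in KO cTEC. It came to 0.476, 0.576 and 0.650 in WT mTEChi and to 0.635, 0.677 and 0.724 in KO mTEChi. Ltc4s to Alox5ap came to 0.259 to 0.441 over the 10 cTEC and mTEClo libraries and to 1.22 to 1.86 over the 6 mTEChi libraries. Both ratios were thus higher in every mTEChi library than in any other library. A ratio shows an unequal change of its 2 genes and not which of them changed. For Ltc4s and Alox5ap, the overlap with antisense genes given above also applies to their ratio.

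**Figure D3:**
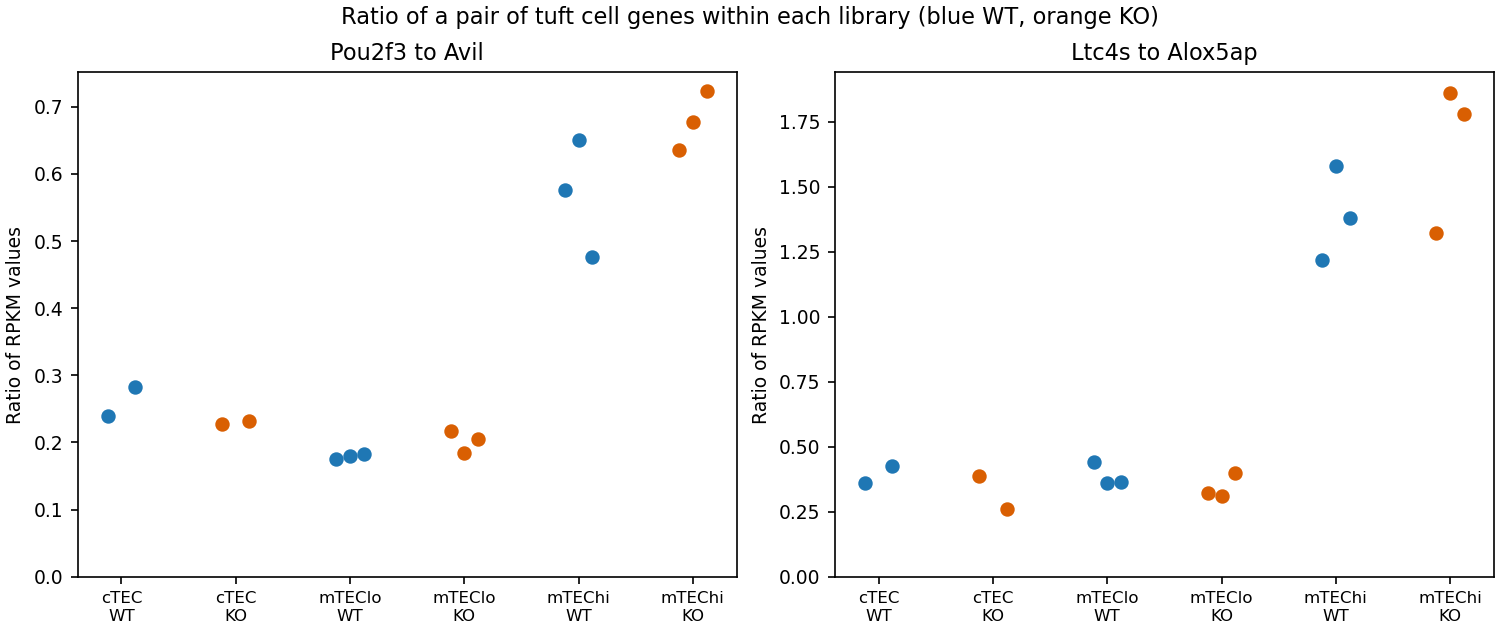
Ratio of the RPKM of Pou2f3 to Avil and of Ltc4s to Alox5ap (vertical axes, linear, starting at 0) in each library by group (horizontal axes), blue WT and orange KO. The 6 mTEChi libraries lie at 0.476 to 0.724 and at 1.22 to 1.86, above the 10 others.

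Between WT mTEChi and WT cTEC the members split. Pou2f3 was higher in mTEChi, by 1.23 on the log2 scale (SE 0.17, edgeR adjusted p = 0.000296), and so was Ltc4s, at 1.19 (SE 0.32, adjusted p = 0.0104). These 2 of 9 compare with 36.5% of 19990 genes called higher. Dclk1 was lower, at -1.10 (SE 0.14, edgeR adjusted p = 0.000132), and so was Alox5ap, at -0.61 (SE 0.21, adjusted p = 0.0309), where 28.0% of genes were called lower. Avil, Bmx, Chat, Il25 and Lrmp lay between -0.37 and 0.38 and did not pass in edgeR (adjusted p from 0.140 to 0.837). The median of all genes tested was 0.24 in this contrast and 0.42 with the size factors of DESeq2 (RLE). Under these, Alox5ap stood at -0.43 and no longer passed in edgeR (adjusted p = 0.117), and Bmx passed at 0.50 (adjusted p = 0.0387). Without WT cTEC 2, only Pou2f3 and Dclk1 of the 4 calls passed.

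The central comparison of the study was KO against WT within a population. In cTEC, 8 of 9 members stood higher in both KO libraries than in both WT libraries, where 21.0% of 16423 genes did. None of the 9 passed in the edgeR fit of the 4 cTEC libraries, in which 0% of all genes passed. At an unadjusted p under 0.05 there were 7 members and 2104 genes in all. The log2 fold changes had a median of 1.35, against 0.01 over all genes tested. Chat was largest at 1.66 (SE 0.36, adjusted p = 0.156), the fitted levels being 3.17-fold apart. It was followed by Alox5ap at 1.47 (SE 0.25, adjusted p = 0.0891), Bmx at 1.46 (SE 0.19, adjusted p = 0.0687) and Avil at 1.39 (SE 0.22, adjusted p = 0.0855). Lrmp had 1.35 (SE 0.29), Pou2f3 1.21 (SE 0.24), Ltc4s 1.19 (SE 0.51) and Dclk1 0.91 (SE 0.17), with edgeR adjusted p from 0.117 to 0.402. Il25 had 0.36 with an SE of 1.58 (edgeR adjusted p = 0.970). KO 1 was the highest cTEC library for all 9 members, from 41.3 to 61.4% of the level in WT mTEClo, against at most 42.0% in KO 2. It was also the library with the highest share of reads outside genes (30.4%), and the part of this in its values was not tested.

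How many members passed in cTEC differed between the fits, and so did the share of all genes that passed. DESeq2 on the same 4 libraries called 7 members higher, where it called 3.18% of genes higher. One edgeR fit of all 16 libraries called 8 members higher, where it called 13.2% of genes higher, with the spread of all 3 populations shared. A voom fit of all 16 libraries with a weight per library, which gave the cTEC KO libraries the lowest weights (0.162 and 0.120), called none of the members and 1.06% of genes higher. Without the filter on low counts edgeR called 6 members higher, where it called 1.56% of genes higher. Without KO 2 the edgeR fit of cTEC called 8 members higher, where 4.44% of genes were called higher. Without KO 1 it called 7 members higher and Il25 lower, where 8.77% of genes were called higher and 12.1% lower. Without WT 1 it called 5 members higher, where 0.872% of genes were, and without WT 2 it called 4, where 0.847% of genes were. With 1 library left in a group, that library is taken to vary as those of the other group do.

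Other genes moved with these values in cTEC. Of the markers of the medulla, Aire stood at 13.7 and 10.6 CPM in WT cTEC and at 107 and 44.2 CPM in KO cTEC, and Hdc stood at 9.94 to 10.4 CPM and at 36.0 to 69.9 CPM. Over the list, 9 of 9 medullary markers tested had a log2 fold change above 0, with a median of 1.03. Their summed level was 3597 to 4091 CPM in WT and 4231 to 4257 CPM in KO. The 10 cortical markers summed to 6756 to 8076 CPM in WT cTEC and to 4483 to 5560 CPM in KO cTEC, with 9 of 10 below 0. The 11 markers of mast cells, basophils and neutrophils summed to 30.1 to 35.3 CPM in WT and 74.6 to 89.8 CPM in KO, and Kit alone made up 51.8 to 74.1 CPM of the latter. Of these 11 genes 4 had enough counts to be tested, Kit, S100a8, S100a9 and Mpo, and all 4 stood above 0 on the log2 scale. S100a8, a neutrophil gene, stood at 1.02 to 2.83 CPM in WT and at 5.11 to 13.3 CPM in KO. The mast cell gene Mcpt4 and the basophil gene Mcpt8 were at 0 in all 4 cTEC libraries. The markers of dendritic cells and macrophages summed to 41.4 to 74.3 CPM in WT and 95.1 to 121 CPM in KO, with 8 of 10 tested above 0. The markers of neurons summed to 23.8 to 30.2 CPM in WT and 77.04 to 123 CPM in KO, with 5 of 5 tested above 0 and a median of 2.31, and Syt1 alone made up 71.4 to 106 CPM of the latter. The markers of B cells summed to 2.64 to 4.87 CPM in WT and 12.5 to 13.8 CPM in KO, with 6 of 6 above 0 and a median of 1.40. Such counts of signs do not mean that both KO libraries lay above WT. The neuronal gene Snap25 ran from 0 to 7.86 CPM in KO, against 0.68 to 0.72 CPM in WT. The B cell gene Blk ran from 0.056 to 1.95 CPM in KO, against 0.33 to 0.56 CPM in WT. Syt1, Tubb3, Prph, Cd79a, Cd79b and Ms4a1 lay above WT in both KO libraries. None of the markers on these lists passed in edgeR. The sums of thymocyte, endothelial, fibroblast and erythroid markers overlapped between WT and KO, but single markers shifted. Of the fibroblast and pericyte markers 7 of 8 stood above 0, with a median of 0.74. Dcn, the largest part of their sum, stood at 760 to 895 CPM in WT and 472 to 724 CPM in KO. Of the thymocyte markers 10 of 12 stood above 0, with a median of 0.46. Of the endothelial markers 5 of 7 stood below 0, with a median of -1.0. The part of these shifts in the values of the tuft cell genes was not tested.

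In mTEClo all 9 members had a log2 fold change below 0 in KO against WT, with a median of -0.32 against 0.00 over all genes tested. None passed in edgeR (adjusted p from 0.201 to 0.711), and 0.00586% of 17073 genes did, which is Psmb11 alone. At an unadjusted p under 0.05 there were 4 members and 2141 genes. Chat was lowest at -0.52 (SE 0.12, adjusted p = 0.201), followed by Avil at -0.38 (SE 0.12, adjusted p = 0.259) and Ltc4s at -0.35 (SE 0.12, adjusted p = 0.316). DESeq2 called Chat and Avil lower, where it called 1.38% of genes lower. The libraries of Avil, Bmx, Chat and Lrmp did not overlap, 4 of 9 members, where 7.88% of genes lay lower without overlap. KO 3 was the lowest of the 6 mTEClo libraries for all 9 members, at 55.8 to 71.8% of the WT mean. Without it the median was -0.15 and Alox5ap stood above 0, at 0.04.

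In mTEChi the median was -0.27, and none of the 9 passed in edgeR (each adjusted p = 0.999), where 0.00510% of 19614 genes passed, again Psmb11 alone. At an unadjusted p under 0.05 there were 5 members and 822 genes, and DESeq2 called none of the 9. Il25 was lowest at -0.61 (SE 0.27), and Pou2f3 at 0.02 (SE 0.10) and Dclk1 at -0.01 (SE 0.09) were nearest to 0. None of the 9 had groups that did not overlap, where 864 of 19614 genes lay lower and 889 higher without overlap. WT 3 was the highest mTEChi library for 8 of 9 members, and without it the median was -0.16.

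**Figure D4:**
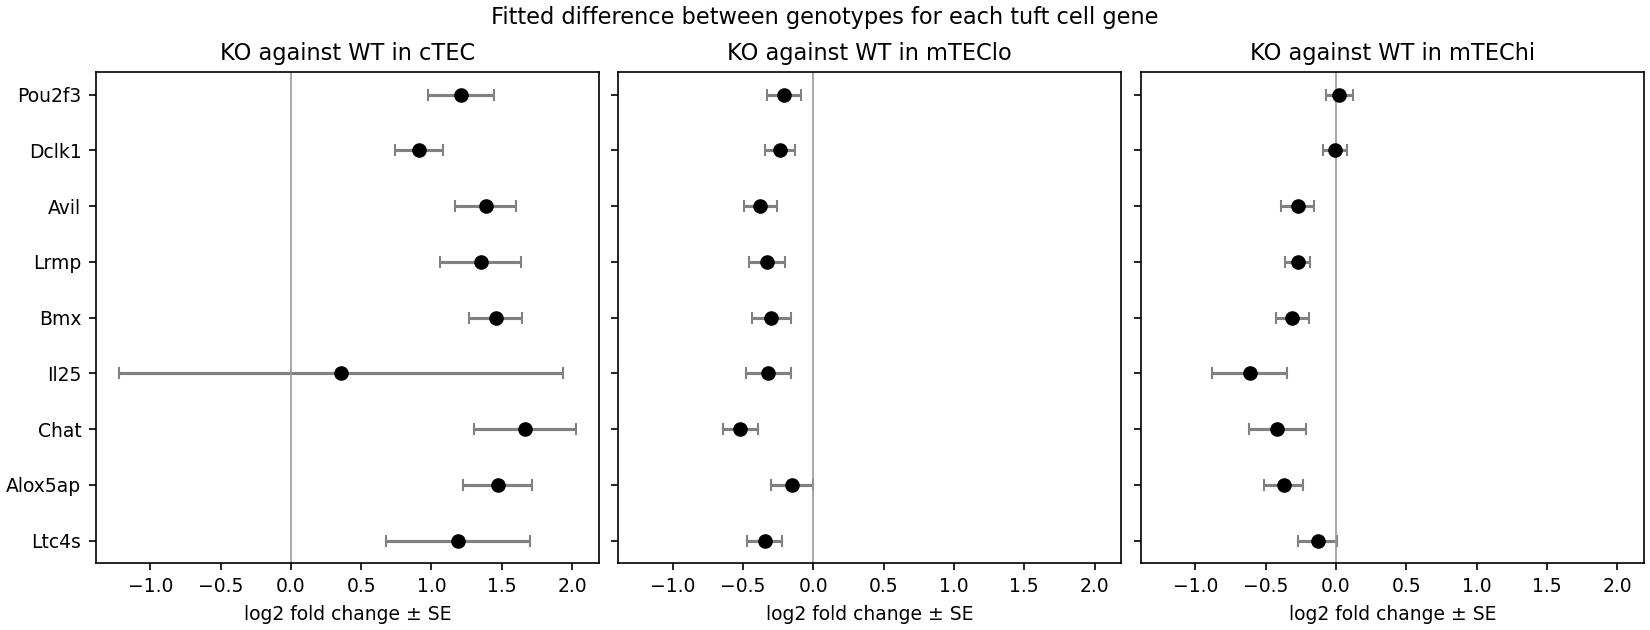
Log2 fold change of KO against WT with its SE (horizontal axes, the same range in each panel) for each member (vertical axis) from the edgeR fit of each population alone. In cTEC all 9 points lie above 0, from 0.36 to 1.66, in mTEClo all lie below 0, from -0.52 to -0.15, and in mTEChi they run from -0.61 to 0.02; no point passed the adjusted threshold.

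Whether the genotype acted differently between populations was tested as such. The effect in cTEC minus that in mTEClo was above 0 and passed for 8 of 9 members in the edgeR fit of 10 libraries, where 3.41% of 17820 genes passed in that direction. It was largest for Chat at 2.18 (SE 0.24, adjusted p = 0.00203) and smallest among the calls for Dclk1 at 1.14 (SE 0.21, adjusted p = 0.0169). Il25 had 0.66 (SE 1.44, adjusted p = 0.839). This fit takes 1 spread for both populations, although that of cTEC was larger. The voom fit with a weight per library called 2 of the 9, Avil (adjusted p = 0.0317) and Lrmp (adjusted p = 0.0271), where it called 1.36% of genes in that direction. Without WT cTEC 1 edgeR called 4 members, where it called 3.02% of genes in that direction, and without WT cTEC 2 it called 3, where it called 2.19%. The effect in mTEChi minus that in mTEClo ran from -0.29 to 0.24 and passed for none of the 9 in edgeR or in DESeq2, none of them at an unadjusted p under 0.05 either, where 0.0101% of 19816 genes passed.

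Among 9 other regulators of tuft cells, 8 were higher in WT mTEClo than in WT cTEC, where 14.4% of all genes tested were called higher. Those with the smallest p were Spib, an Ets-family factor, at a log2 fold change of 2.92 (SE 0.21), the homeobox gene Hmx3 at 2.85 (SE 0.28), Gm684 at 1.44 (SE 0.15), which encodes a coactivator of Pou2f3, and Sox9 at 0.73 (SE 0.09). From WT mTEClo to WT mTEChi 7 of the 9 fell, where 36.8% of all genes tested fell. They were led by Sox9 at -1.70 (SE 0.09), Sox4 at -1.47 (SE 0.11), 1810046K07Rik, the other coactivator gene, and Hmx2 at -1.45 (SE 0.23). The CPM of 1810046K07Rik was 56.9 to 61.3 in WT mTEClo and 15.6 to 19.9 in WT mTEChi. Spib alone passed as higher, by 0.45 (SE 0.10, edgeR adjusted p = 0.000557), and is named for that after its values were seen. It stood at 354 to 383 CPM in WT mTEClo and at 479 to 540 CPM in WT mTEChi. Ascl2 also lay above 0 but did not pass, with means of 4.07 and 4.42 CPM. From KO mTEClo to KO mTEChi 5 of the 9 passed as lower and 1 as higher, where 7371 of all 19816 genes tested passed as lower and 8564 as higher. The median of the 9 from WT mTEClo to WT mTEChi was -0.54, against -2.55 for the members and -0.93 for Pou2f3.

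Genes of the taste cascade, through which tuft cells sense, were higher in mTEClo than in cTEC and, with 1 exception, lower in mTEChi, as the members were. Of 11 genes 10 were in the table, and all 10 were higher in WT mTEClo than in WT cTEC, where 14.4% of all genes tested were called higher. Their median log2 fold change was 2.78. Plcb2, the phospholipase of the cascade, had 2.86 (SE 0.13), the G protein subunits Gnb3 and Gng13 had 3.63 (SE 0.24) and 3.05 (SE 0.21), and Rgs2 had 1.88 (SE 0.11). From WT mTEClo to WT mTEChi 9 of 10 fell, where 36.8% of all genes tested fell. The channel gene Trpm5 fell by -2.77 (SE 0.14), Gnat3 by -2.42 (SE 0.12), Rgs13 by -2.60 (SE 0.17) and Plcb2 by -2.19 (SE 0.14). Itpr3 was the one that rose, and is named for that after its values were seen, from 134 to 177 CPM in WT mTEClo to 187 to 218 CPM in WT mTEChi. In the difference of the genotype effect between cTEC and mTEClo 7 of 10 passed above 0 in edgeR, where 3.41% of all genes tested passed in that direction. Plcb2 had 2.09 (SE 0.16) and Trpm5 1.83 (SE 0.25). As for the members, this fit takes 1 spread for both populations, although that of cTEC was larger. None of the 10 passed in KO against WT in any population in edgeR.

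The enzymes of eicosanoid synthesis did not move as 1 group. In WT mTEClo 8 of 16 were higher than in WT cTEC and none lower, where 14.4% of all genes tested were called higher. They were led by Alox15 at 2.65 (SE 0.14), Alox5 at 2.35 (SE 0.19), Pla2g4a at 1.32 (SE 0.11) and Ptgs1 at 1.99 (SE 0.20). Alox5 is the 5-lipoxygenase that Alox5ap serves. From WT mTEClo to WT mTEChi 5 of 16 fell and 7 rose, where 7293 of all 19816 genes tested fell and 8481 rose. These counts are near the shares over all genes. Alox5 fell by -2.73 (SE 0.12), from 221 to 226 CPM to 30.3 to 40.9 CPM. The genes that rose were led by the prostaglandin genes Ptgds at 5.03 (SE 0.15) and Ptgs2 at 3.78 (SE 0.14) and by the phospholipase Pla2g4a at 1.99 (SE 0.08), which releases arachidonic acid for leukotrienes and prostaglandins alike, while Ptgs1 fell by -2.20 (SE 0.15) and is named beside Ptgs2 after its values were seen. Ptgs2 stood at 56.3 to 73.0 CPM in WT mTEClo and at 778 to 960 CPM in WT mTEChi.

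The genes that act with Chat and Il25 moved in both directions. Of 4 genes of acetylcholine handling, Ache, which splits acetylcholine, rose from WT mTEClo to WT mTEChi by 2.65 (SE 0.14), the choline transporter gene Slc5a7 by 2.90 (SE 0.41) and the vesicular transporter gene Slc18a3 by 3.26 (SE 0.48), while Bche fell by -0.25 (SE 0.09, edgeR adjusted p = 0.0223). Slc18a3 lies within the Chat locus. It had 12 to 84 counts in the mTEClo libraries, where Chat was highest, 216 to 365 counts in the mTEChi libraries, and 2, 0, 0 and 0 counts in cTEC, a count of 0 allowing up to 0.042 CPM. Of 9 genes of the type 2 cytokine circuit, the Il25 receptor gene Il17rb was higher in WT mTEClo than in WT cTEC by 2.18 (SE 0.17) and fell in WT mTEChi by -1.77 (SE 0.12). Il33, an alarmin, was lower in WT mTEClo than in WT cTEC by -2.84 (SE 0.28). Il13 and Il5, cytokines that tuft cells elicit from lymphoid cells in gut, rose from WT mTEClo to WT mTEChi by 7.87 (SE 0.18) and 5.24 (SE 0.31), and Il4 rose from 4, 0 and 0 counts to 450, 674 and 297 counts.

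Of the relatives of the other members, the villin family and brush border list had 3 of 10 genes higher and 3 lower in WT mTEClo than in WT cTEC. Of all 17820 genes tested there, 2561 were higher and 2343 lower. The villin gene Vil1 was higher by 2.53 (SE 0.31) and the keratin gene Krt20 by 3.13 (SE 0.28), and both rose further in WT mTEChi, Vil1 by 0.37 (SE 0.09) and Krt20 by 3.01 (SE 0.14). From WT mTEClo to WT mTEChi 5 of the 10 rose and 4 fell, where 8481 of all 19816 genes tested rose and 7293 fell. Among those that fell, as Avil did, were Gsn, gelsolin of the same protein family, by -2.93 (SE 0.10), from 1716 to 1915 CPM to 225 to 263 CPM, and Espn by -1.05 (SE 0.11). Among 11 Tec kinase and leukocyte-type signalling genes 7 were higher in WT mTEClo than in WT cTEC, where 14.4% of all genes tested were called higher. Among these 7 were Inpp5d at 2.44 (SE 0.14), Plcg2 at 1.85 (SE 0.12) and Ptpn6 at 1.42 (SE 0.13). From WT mTEClo to WT mTEChi 7 of the 11 fell, where 36.8% of all genes tested fell. The other 4 rose, Tec by 1.79 (SE 0.07). Ptprc, the CD45 gene that sorted cells should lack, stood at 11.7 to 38.2 CPM over the 16 libraries, at 26.9 to 38.2 CPM in cTEC, 18.2 to 30.3 CPM in mTEClo and 11.7 to 27.7 CPM in mTEChi. Among 7 relatives of Lrmp and Dclk1, Mrvi1, the closest relative of Lrmp, was higher in WT mTEClo by 2.08 (SE 0.26) and fell in WT mTEChi by -1.68 (SE 0.11), and Itpr2 by 1.29 (SE 0.11) and -1.60 (SE 0.09). Dclk3 rose from WT mTEClo to WT mTEChi by 4.78 (SE 0.30), opposite to Dclk1. The markers of mast cells, basophils and neutrophils summed to 456 to 517 CPM in mTEChi and to 87.1 to 132 CPM in mTEClo. Kit alone made up most of the mTEClo sum, at 112 to 124 CPM in WT and 78.4 to 105 CPM in KO. The part of such cells in the values of Alox5ap was not tested.

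The genes most alike in pattern were found by Pearson correlation with the mean standardised profile of the 9 members over the 16 libraries, among 12821 other genes. They were Vav1 (r = 0.9945), Ano7 (0.9937), Trpm5 (0.9908), Rgs2 (0.9888), Plac8 (0.9885), Clmn (0.9885), Ptpn18 (0.9872), Ivns1abp (0.9868), Itfg3 (0.9863) and Ly6g6f (0.9862). Vav1, which encodes an exchange factor best known from leukocytes, had means of 28.1 CPM in WT cTEC, 76.2 in KO cTEC, 189 in WT mTEClo, 148 in KO mTEClo, 30.9 in WT mTEChi and 26.6 in KO mTEChi. Ivns1abp was the most abundant of the 10, with a mean of 1297 CPM in WT mTEClo and 426 CPM in WT cTEC. These correlations are a description, since the 16 libraries fall into 3 populations and share the contrast between them.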

How the data were processed

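RNA of sorted thymic epithelial cells was sequenced from a kit (TruSeq version 2) that does not mark the strand, from at least 10 ng of RNA per the labels' protocols. The authors deposited whole-number read counts per gene and a table of RPKM, which divide by library size and gene length, and the deposited RPKM were used as they stand to compare genes. CASAVA 1.8.2, HTSeq 0.5.4p1 and the build mm10 are named per the submitters' processing notes; the aligner is not given in the sources used here. Reads outside genes (13.7 to 30.4%) and ambiguous reads (0.541 to 0.887%) stayed out of library sizes and tests.

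Counts were tested with edgeR 4.0.16 (quasi-likelihood test, TMM, filterByExpr, Benjamini-Hochberg over all genes tested, threshold 0.05) in R 4.3.3, on the libraries of the populations compared only: 4 in cTEC, 6 in mTEClo, 6 in mTEChi, 10 or 12 where populations were compared. Both contrasts against WT cTEC share the WT cTEC libraries, and both that hold WT mTEClo share its libraries. The code was tested on simulated data. Alternatives were the size factors of DESeq2 1.42.0 (RLE), no filter, 1 fit of all 16 libraries, the DESeq2 Wald test, voom of limma 3.58.1 with a weight per library, the replicate number as a block, and leaving out each library. Tables were made with Python 3.11.15 and pandas 2.3.3. Intervals and floors, at 3 counts, cover counting error only.

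The members, lists and tests were chosen with earlier results of these data known. All members are named. From each list of related genes those that passed are named, at most the 4 with the smallest p per comparison. One gene that this rule would name is not reported here. The 10 genes most alike were taken by Pearson r on log2(CPM + 0.5) among genes with a mean of at least 5 CPM.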

Additional observations from a re-analysis of the deposited data

Results flagged for a closer look

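In 8 of the 9 measured genes the effect of the genotype differed between cTEC and mTEClo, by an interaction term in edgeR's quasi-likelihood fit of 10 libraries with adjusted p from 0.00203 to 0.0475. On the log2 scale the effect in cTEC minus that in mTEClo was 2.18 for Chat, 1.76 for Avil, 1.75 for Bmx, 1.67 for Lrmp, 1.62 for Alox5ap, 1.53 for Ltc4s, 1.41 for Pou2f3 and 1.14 for Dclk1. In that fit 3.41% of genes passed in this direction, and 834 genes passed in all. Voom with a weight per library called 2 of the 9, and edgeR called 4 without WT cTEC 1 and 3 without WT cTEC 2. All 8 had both KO cTEC libraries above both WT cTEC libraries. Groups of 2 or 3 libraries were too small for a test of single libraries that stand apart.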

How the results depend on the processing

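Over all alternatives, 903 values of single members kept their direction and their side of the threshold, 58 passed it newly, 35 no longer passed it and 30 changed sign. Of the KO effect in cTEC, with 0 of 9 members called, 6 were called with no filter on low counts, 8 in 1 fit of all 16 libraries, 7 by DESeq2, and 4 to 8 with 1 library left out. In mTEClo DESeq2 called 2. Between WT mTEChi and WT cTEC leaving out a library gave 2 to 4 calls. The difference of the effect, cTEC minus mTEClo, gave 2 calls by voom and 3 to 9 with 1 library left out. Where 1 library is left in a group, it is assumed to vary as the other groups do. Over all genes, the KO effect in cTEC gave 0 calls, 821 by DESeq2, 4700 in 1 fit of 16 libraries, 383 without a filter and 221 by voom; in mTEClo 1, 318 by DESeq2, 21 without a filter, 61 by voom and 0 in 1 fit; in mTEChi 1, 7 by DESeq2, 3 by voom and 0 in 1 fit. The difference cTEC minus mTEClo gave 834, 2263 by DESeq2, 2676 in 1 fit and 285 by voom, and mTEChi minus mTEClo gave 2, 16 by DESeq2, and 0 by voom and in 1 fit. WT mTEClo against WT cTEC gave 4904 and 7600 by voom.

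Sign changes touched log2 values near 0 or Il25. Voom gave Il25 -1.52 in cTEC and -1.17 for cTEC minus mTEClo, and Bmx 0.11 for mTEChi minus mTEClo, and 1 fit of 16 libraries gave Dclk1 0.0025 in mTEChi. With 1 library left out, Il25 ran from -5.93 to 1.36 in cTEC and from -5.60 to 1.65 for cTEC minus mTEClo. In mTEChi Dclk1 ran from -0.095 to 0.11, Ltc4s from -0.28 to 0.0020 and Pou2f3 from -0.045 to 0.14, and in mTEClo Alox5ap ran from -0.34 to 0.045. Between WT mTEChi and WT cTEC Avil ran from -0.062 to 0.40 and Lrmp from -0.054 to 0.22. For mTEChi minus mTEClo Avil ran from -0.036 to 0.31, Bmx from -0.18 to 0.13, Chat from -0.10 to 0.34 and Lrmp from -0.10 to 0.18. The cause of these changes was not tested.

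The replicate numbers were not taken to pair the libraries, since no comparison checked had all same-number correlations of deviations over 0.1: between WT and KO they were -0.0075 in cTEC, -0.106 to 0.194 in mTEClo and -0.0265 to 0.190 in mTEChi, and between mTEClo and mTEChi -0.161 to -0.0118 in WT. In KO they were 0.227, 0.084 and 0.175, and there every library correlated best with its own number, a hint from the data and not from the design. With the numbers as a replicate block 7 members were called in cTEC, Il25 standing at -2.03, and 7 for cTEC minus mTEClo, and over all genes 718 and 390. From KO mTEClo to KO mTEChi all 9 members were called lower with the block too.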
